A study of Mus musculus with 9 samples.

Results

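The genes described here were 8 transcription factors that direct the formation of granulocytes and monocytes, Cebpa, Cebpb, Cebpd, Cebpe, Spi1, Runx1, Gfi1 and Klf4, together with Csf3r, which encodes the receptor of granulocyte colony-stimulating factor (G-CSF). They were taken by name and made up 9 of the 23337 genes in the count tables. 8 of the 9 were listed under the symbol given here, and Spi1 was found under its older symbol Sfpi1. All 9 were among the 12553 genes that passed the filter on low counts.

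RNA was sequenced from CD11b+ bone marrow cells of 9 male C57BL/6 mice obtained at 3 to 6 weeks of age, with 3 mice in each of 3 groups. The PBS group received 3 tail vein injections of 100 µl of vehicle at intervals of 48 h, and the EnzR EVs group received on the same schedule extracellular vesicles holding 10 µg of protein, shed by human CWR-R1 prostate cancer cells made resistant to the anti-androgen enzalutamide. The EnzR EVs + HDL NPs group received the same vesicles and, on alternating days starting 24 h earlier, nanoparticles that mimic high-density lipoprotein (HDL NPs, in 100 µl at 1 µM by the labels and 100 µM by the study's methods). All mice had marrow harvested 24 h after the last injection and cells bound through CD11b, the product of Itgam, with magnetic beads. None of the groups received HDL NPs alone, so a response to the nanoparticles themselves and a change in the response to the vesicles cannot be told apart. None received vesicles of another cell line, so the response to these vesicles and the response to vesicles of any source cannot be told apart.

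In marrow, blood cell types are set by a small number of transcription factors that act in combination. PU.1, the product of Spi1, and C/EBP alpha open the myeloid programme, Gfi1 and C/EBP epsilon lead on to granulocytes and their granule proteins, and Klf4 and high PU.1 favour monocytes. C/EBP beta takes over from C/EBP alpha when granulocytes are produced on demand, and the G-CSF receptor carries the signal for that demand.

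The libraries held 2575776 to 18110561 counts, and the count of a member in a library ran from 80 to 16482. The share of counts on Rn45s, the precursor of ribosomal RNA, set 3 libraries apart: it was 20.3% in PBS 1, 42.7% in EnzR EVs 1 and 14.2% in EnzR EVs 3, against 0.657% to 2.87% in the other 6 libraries. Of the 3 high libraries 1 was from the PBS group, 2 were from the EnzR EVs group and 0 were from the EnzR EVs + HDL NPs group. EnzR EVs 1 was also the smallest library. Levels are given as CPM, counts scaled to a common library size with TMM factors, and a count of 3 corresponded to 0.16 to 1.65 CPM. The 3 mice of a group are the replicates. PBS 2 and PBS 3 were the closest pair within a group, with r of 0.994 between their log2 CPM. PBS 1 had r of 0.958 and 0.955 with them, and pairs within the other groups had 0.872 to 0.986.

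Itgam, the gene of the antigen used for the selection, was at 1390 to 2010 CPM in all 9 libraries. The 4 neutrophil markers S100a8, S100a9, Retnlg and Cxcr2 summed to 6610 CPM in EnzR EVs 1, 19500 CPM in PBS 1 and 24100 CPM in EnzR EVs 3, and to between 38900 and 93900 CPM in the other 6 libraries. The libraries high in Rn45s were thus the 3 lowest in this sum, which S100a8 and S100a9 carried. Retnlg followed it in part, lowest of the 9 libraries at 2270 CPM in EnzR EVs 1 but at 3070 CPM in PBS 1 and 3410 CPM in EnzR EVs 3, against 2380 to 3600 CPM in the 6 libraries low in Rn45s. S100a9, the most abundant of these genes, ran from 2230 CPM in EnzR EVs 1 to 51400 CPM in EnzR EVs + HDL NPs 2. Ly6g was not analysed here. In bulk samples fewer cells of a type and less RNA per cell cannot be told apart.

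No member differed between groups at an adjusted p under 0.05. In EnzR EVs against PBS, edgeR's quasi-likelihood test called 0 of the 9 members and 0 of 12553 genes (0%), and 0 members beside 436 genes (3.47%) had an unadjusted p under 0.05. DESeq2 called 14 of the 10878 genes to which it gave an adjusted p (0.129%) and limma's voom with sample quality weights called 1972 of 12553 (15.7%), both with 0 members among them. The weights were 0.365, 3.61 and 3.17 for PBS 1 to 3 and 0.315, 0.334 and 2.65 for EnzR EVs 1 to 3. They were 0.754, 1.29 and 0.884 for EnzR EVs + HDL NPs 1 to 3. The weighted fit thus leaned on PBS 2 and 3, low in Rn45s, and on EnzR EVs 3, high in it. With the replicate number as a block, edgeR called 1 gene and 0 members. The 2 groups did not overlap in CPM for 1 of the 9 members, Klf4, and for 999 of the 12553 genes (7.96%).

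The EnzR EVs + HDL NPs group set against PBS gave 0 of 9 members and 0 genes (0%) by edgeR, and 0 members beside 268 genes (2.13%) at an unadjusted p under 0.05. DESeq2 called 2 of 18794 genes (0.0106%) and voom with sample quality weights 8 of 12553 (0.0637%), with 0 members in either. Cebpa was the 1 member whose groups did not overlap, beside 1653 genes (13.2%).

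Set against EnzR EVs, the EnzR EVs + HDL NPs group again gave 0 of 9 members and 0 genes (0%) by edgeR. Cebpa and Cebpb, 2 of the 9 members, had an unadjusted p under 0.05, as did 1325 genes (10.6%). DESeq2 called 1 of 18794 genes (0.00532%) and voom with sample quality weights 639 of 12553 (5.09%), again with 0 members in either. The groups did not overlap for 0 members and for 2205 genes (17.6%). The median log2 fold change of the members was 0.26 in EnzR EVs against PBS, -0.10 in EnzR EVs + HDL NPs against PBS and -0.03 in EnzR EVs + HDL NPs against EnzR EVs, beside -0.03, -0.01 and 0.03 over all tested genes. The 3 comparisons share samples, so their values are not independent of each other.

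**Figure D1:**
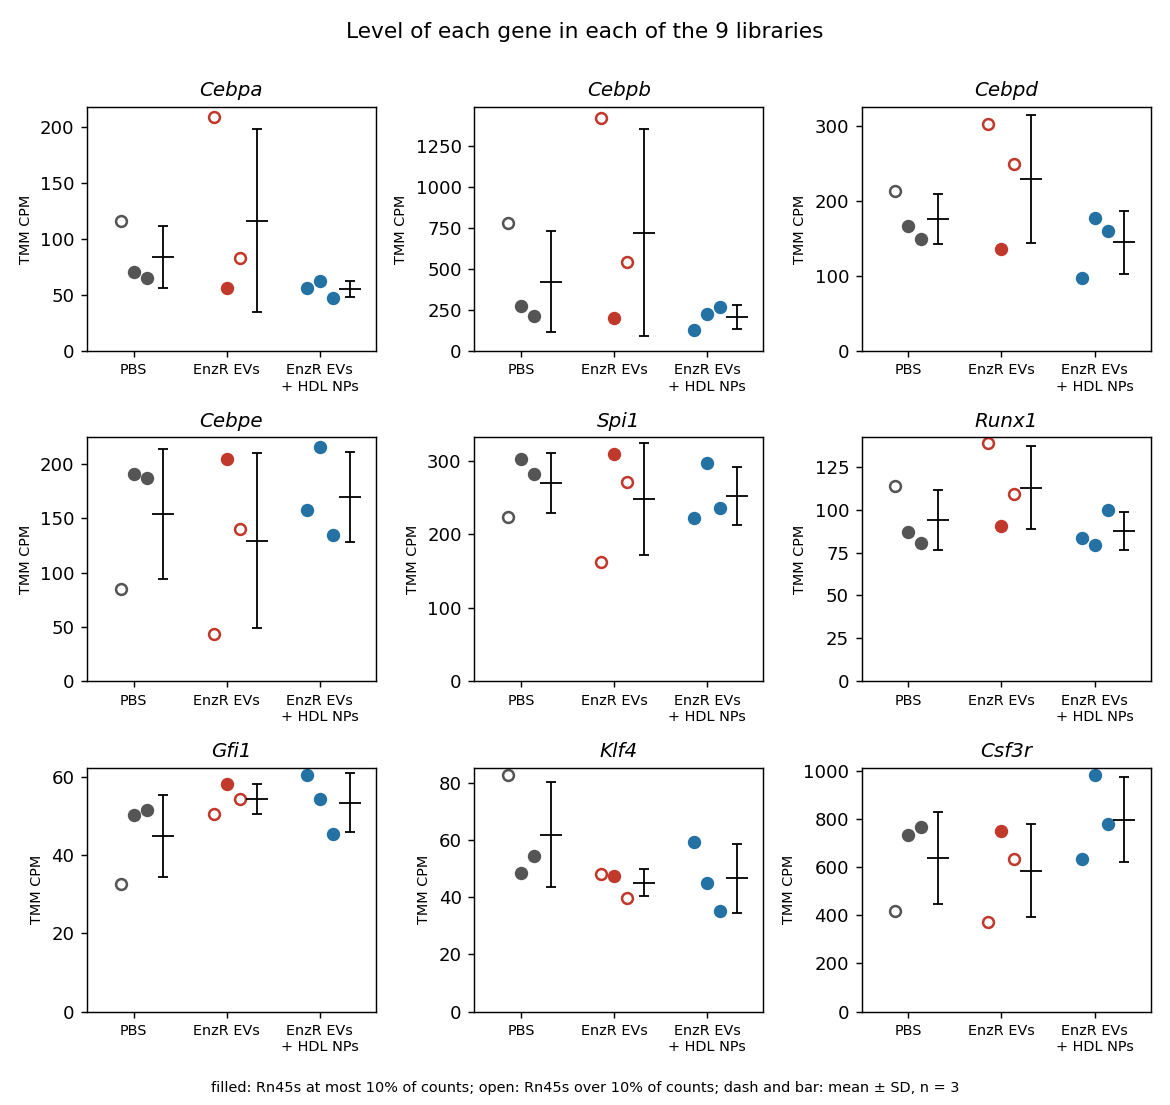
Level of each of the 9 genes in each library in CPM scaled with TMM factors (linear axes from 0), 3 libraries a group, with the mean and SD beside the points. For Cebpb the open points, the 3 libraries with over 10% of counts on Rn45s, sit between 542 and 1420 CPM, above the 6 filled points at 128 to 274 CPM.

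The C/EBP genes encode leucine zipper proteins that bind the same DNA element. Cebpa and Cebpb varied together over the 9 libraries (r = 0.92) but not over the 6 low in Rn45s (r = 0.16), and for this shared course the 250 bases before their start sites are shown, read from RefSeq promoter sequences (GRCm38.p6, forward strand for both). They were searched on both strands for the letters GCAAT (a C/EBP core), GAGGAA (a PU.1 core) and TGTGGT (a RUNX core), and matches are in capitals. No motif contains another. Of 32851 promoters, 23.1% held GCAAT in the 250 bases, 23.3% held GAGGAA and 14.0% held TGTGGT.
Cebpa, chr7:35119043-35119292: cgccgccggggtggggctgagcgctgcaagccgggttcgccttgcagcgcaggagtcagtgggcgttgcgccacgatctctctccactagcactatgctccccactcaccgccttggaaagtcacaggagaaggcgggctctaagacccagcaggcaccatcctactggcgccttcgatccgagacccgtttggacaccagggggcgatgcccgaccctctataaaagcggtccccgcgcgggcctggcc
Cebpb, chr2:167688665-167688914: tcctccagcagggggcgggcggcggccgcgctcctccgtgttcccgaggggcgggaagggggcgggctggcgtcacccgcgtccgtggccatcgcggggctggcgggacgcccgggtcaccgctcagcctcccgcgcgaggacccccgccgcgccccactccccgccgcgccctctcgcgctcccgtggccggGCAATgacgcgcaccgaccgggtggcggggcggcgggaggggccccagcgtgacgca
The Cebpb window held 1 match to the C/EBP core, 57 bases before the start, and the Cebpa window held 0 matches to the 3 motifs. Of the other members with an entry, Csf3r held matches described with that gene, Runx1 held 1 match to the PU.1 core on the reverse strand, and Gfi1 and Klf4 held 0. Both windows lie outside annotated exons. Of the 9 genes 6 had entries in the promoter table. Cebpd, Cebpe and Spi1 had none.

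Cebpa encodes the factor with which progenitors enter the granulocyte and monocyte path. Exons of Cebpa, Cebpb, Cebpd, Runx1 and Gfi1 overlap genes of the opposite strand, by 51, 312, 562, 106 and 101 bases. The strand setting of the counting is not given in the sources used here. Within these bases, reads of the overlapping genes therefore cannot be told apart from theirs. The level of Cebpa was 116, 70.6 and 65.0 CPM in PBS 1 to 3, 209, 55.7 and 83.2 CPM in EnzR EVs 1 to 3, and 55.8, 61.9 and 47.4 CPM in EnzR EVs + HDL NPs 1 to 3. EnzR EVs 1 held the highest level and PBS 1 the next, the EnzR EVs libraries lay on both sides of the PBS libraries, and all 3 EnzR EVs + HDL NPs libraries lay under the PBS libraries. The group means were 83.8 ± 27.8, 116 ± 81.5 and 55.1 ± 7.28 CPM (SD, n = 3 each). EnzR EVs + HDL NPs against EnzR EVs gave a log2 fold change of -1.04 (95% CI -1.98 to -0.11, edgeR, unadjusted p = 0.0317, adjusted p = 0.461), and 1 of the 3 EnzR EVs + HDL NPs libraries lay under all EnzR EVs libraries. That value was -0.34 without EnzR EVs 1, -0.02 without the 3 libraries high in Rn45s, which left a single EnzR EVs library, and -0.13 with the log2 share of Rn45s as a covariate, an alternative chosen after seeing the data. Against PBS the value was -0.60 (95% CI -1.52 to 0.32, edgeR adjusted p = 1.00), with an exact two-sided permutation p of 0.1, the smallest that 3 against 3 can give, and it was -0.30 without the high libraries, of which the PBS group held 1. EnzR EVs against PBS gave 0.44 (95% CI -0.48 to 1.37), and without the 3 libraries high in Rn45s it was -0.28.

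Cebpb, the factor of emergency granulopoiesis and of inflammatory macrophages, showed the widest range of the 9 genes over the libraries. Its level was 779, 274 and 214 CPM in PBS 1 to 3, 1420, 198 and 542 CPM in EnzR EVs 1 to 3, and 128, 224 and 267 CPM in EnzR EVs + HDL NPs 1 to 3. The 3 libraries high in Rn45s held the 3 highest levels, the other 6 lay between 128 and 274 CPM, a wider relative range than that of any other member in these 6, and each pair of groups overlapped. The means were 422 ± 310, 721 ± 631 and 206 ± 71.0 CPM (SD, n = 3 each), so that the SD of the EnzR EVs group was 87.6% of its mean. EnzR EVs + HDL NPs against EnzR EVs gave a log2 fold change of -1.80 (95% CI -3.28 to -0.32, edgeR, unadjusted p = 0.0220, adjusted p = 0.461). Without EnzR EVs 1 that value was -0.85, without the 3 libraries high in Rn45s it was 0.05, and with the log2 share of Rn45s as a covariate it was -0.02. EnzR EVs against PBS gave 0.77 (95% CI -0.68 to 2.22) and turned to -0.30 without these libraries and to -0.18 without EnzR EVs 1 alone. For EnzR EVs + HDL NPs against PBS the value was -1.03 (95% CI -2.48 to 0.42). It was -0.24 without PBS 1 and -0.08 with the covariate.

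Cebpd, which is induced early by G-CSF and inflammatory signals, ran in the same direction with a narrower range. Its level was 213, 166 and 149 CPM in PBS 1 to 3, 303, 136 and 249 CPM in EnzR EVs 1 to 3, and 97.4, 177 and 160 CPM in EnzR EVs + HDL NPs 1 to 3. The highest 3 values were again those of the libraries high in Rn45s, and all pairs of groups overlapped. EnzR EVs + HDL NPs against EnzR EVs gave a log2 fold change of -0.66 (95% CI -1.34 to 0.02, edgeR, unadjusted p = 0.0569, adjusted p = 0.461), which became 0.09 without the 3 libraries and -0.09 with the covariate. In EnzR EVs against PBS it was 0.37, with -0.21 without the 3 libraries and 0.08 with the covariate, and voom with sample quality weights gave 0.57 with an adjusted p of 0.0515, the lowest adjusted p of a member in any of the alternatives run. That weighted fit leaned on EnzR EVs 3, high in Rn45s, and on PBS 2 and 3, low in it.

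Cebpe, needed for the late steps of granulocyte formation and for secondary granule genes, went the other way. Its level was 85.4, 191 and 187 CPM in PBS 1 to 3, 43.9, 205 and 140 CPM in EnzR EVs 1 to 3, and 158, 216 and 135 CPM in EnzR EVs + HDL NPs 1 to 3. EnzR EVs 1 and PBS 1 held the 2 lowest levels, the value of 43.9 CPM resting on 80 counts, and EnzR EVs 3 lay just above the lowest of the other 6. The means were 155 ± 60.1, 130 ± 81.1 and 170 ± 42.1 CPM (SD, n = 3 each). The log2 fold changes were -0.24, 0.13 and 0.37 in the order of comparisons used above, with adjusted p of 0.947, 1.00 and 0.716 by edgeR, and each took the opposite sign without the 3 libraries high in Rn45s (0.12, -0.16 and -0.28).

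Spi1, the gene of PU.1, varied less. Its level was 224, 303 and 283 CPM in PBS 1 to 3, 163, 310 and 271 CPM in EnzR EVs 1 to 3, and 223, 298 and 236 CPM in EnzR EVs + HDL NPs 1 to 3. EnzR EVs 1 was low, and the other 8 libraries lay within the same range in all groups. The log2 fold changes were -0.12 (95% CI -0.65 to 0.42), -0.10 (95% CI -0.63 to 0.43) and 0.02 (95% CI -0.51 to 0.55), and the last was -0.30 without the libraries high in Rn45s. As folds, these intervals run from 0.639 to 1.33, from 0.648 to 1.35 and from 0.701 to 1.46, so they leave room for changes in both directions.

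Runx1, which encodes the DNA-binding subunit of core binding factor and acts upstream of Spi1 in blood stem cells, was at 114, 86.9 and 80.8 CPM in PBS 1 to 3, 139, 90.7 and 109 CPM in EnzR EVs 1 to 3, and 83.5, 79.2 and 100 CPM in EnzR EVs + HDL NPs 1 to 3. The libraries high in Rn45s held the 3 highest levels here too, and the groups overlapped. EnzR EVs + HDL NPs against EnzR EVs gave a log2 fold change of -0.36 (95% CI -0.82 to 0.10, edgeR adjusted p = 0.487), -0.20 without EnzR EVs 1, -0.05 without these 3 libraries and -0.01 with the covariate. EnzR EVs against PBS gave 0.26 (95% CI -0.20 to 0.72), with 1 of 3 EnzR EVs libraries above all PBS libraries, and 0.10 without EnzR EVs 1.

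Gfi1, a zinc finger repressor that holds back monocyte genes in granulocyte precursors, stayed within 32.7 and 60.3 CPM over the 9 libraries. It was at 32.7, 50.3 and 51.5 CPM in PBS 1 to 3, at 50.5, 58.2 and 54.3 CPM in EnzR EVs 1 to 3, and at 60.3, 54.3 and 45.4 CPM in EnzR EVs + HDL NPs 1 to 3. PBS 1 was the low library, and the groups overlapped. The means of 44.9 ± 10.5, 54.3 ± 3.87 and 53.3 ± 7.51 CPM (SD, n = 3 each) gave log2 fold changes of 0.28 and 0.24 for EnzR EVs and EnzR EVs + HDL NPs against PBS, with edgeR adjusted p of 0.928 and 1.00. Without PBS 1 these values were 0.09 and 0.07, and with the covariate 0.41 and 0.11.

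Klf4, a zinc finger factor of monocytes, was at 82.9, 48.5 and 54.4 CPM in PBS 1 to 3, at 48.3, 47.3 and 39.6 CPM in EnzR EVs 1 to 3, and at 59.4, 45.1 and 35.3 CPM in EnzR EVs + HDL NPs 1 to 3. PBS 1 stood above the others, and the highest EnzR EVs library lay just under the lowest PBS library. EnzR EVs against PBS gave a log2 fold change of -0.46 (95% CI -1.01 to 0.10, edgeR, unadjusted p = 0.0961, adjusted p = 0.928), with an exact two-sided permutation p of 0.1, the smallest possible here. It was -0.12 without the 3 libraries high in Rn45s and -0.48 with the log2 share of Rn45s as a covariate. EnzR EVs + HDL NPs against PBS gave -0.40 (95% CI -0.95 to 0.14). Leaving out each library in turn gave -0.59 to -0.20 for the former and -0.61 to -0.14 for the latter, with -0.20 and -0.14 the values without PBS 1.

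Csf3r lies on chromosome 4. The 250 bases before its RefSeq start held 1 match to the PU.1 core and 1 to the C/EBP core, both within the first exon as annotated by GENCODE, which starts upstream of the RefSeq start. They are shown as 30 bases each, forward strand of GRCm38.p6, because Csf3r is described as a target of both factors.
Csf3r, chr4:126024561-126024590: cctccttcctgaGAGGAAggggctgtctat
Csf3r, chr4:126024629-126024658: cagggaagccaggaaggtgtcGCAATtctg
These matches are descriptions of the sequence, and binding was not measured.

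The level of Csf3r was 418, 733 and 766 CPM in PBS 1 to 3, 371, 750 and 635 CPM in EnzR EVs 1 to 3, and 632, 982 and 778 CPM in EnzR EVs + HDL NPs 1 to 3. EnzR EVs 1 and PBS 1 were low, and the 3 groups overlapped, with 2 of 3 EnzR EVs + HDL NPs libraries above every library of either other group. The means were 639 ± 192, 586 ± 194 and 797 ± 176 CPM (SD, n = 3 each). The log2 fold changes were -0.12 (95% CI -0.80 to 0.55), 0.32 (95% CI -0.36 to 0.99) and 0.44 (95% CI -0.23 to 1.12) in the order of comparisons used above, with edgeR adjusted p of 0.956, 1.00 and 0.532. The value against PBS of 0.32 was 0.09 without PBS 1, 0.14 without EnzR EVs + HDL NPs 2 and 0.10 with the log2 share of Rn45s as a covariate. The last value was 0.20 without EnzR EVs 1 and 0.24 without EnzR EVs + HDL NPs 2, 0.09 without the 3 libraries high in Rn45s and -0.02 with the log2 share of Rn45s as a covariate.

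**Figure D2:**
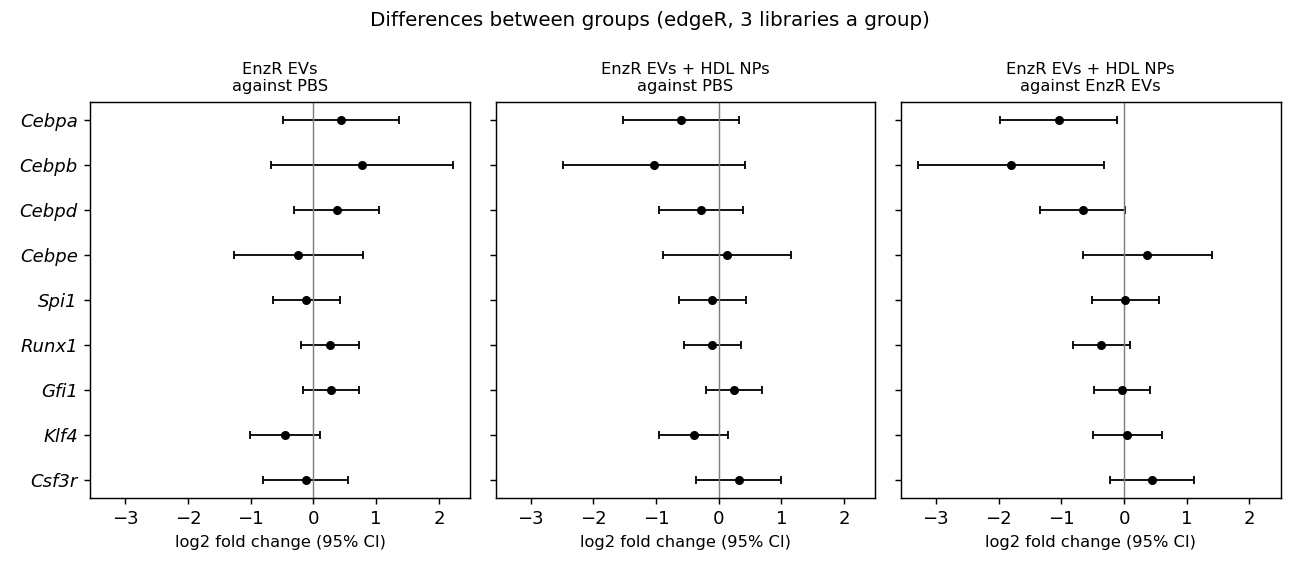
Log2 fold change of each of the 9 genes with its 95% confidence interval from edgeR in each of the 3 comparisons, 3 libraries a group. The intervals of Cebpa (-1.98 to -0.11) and Cebpb (-3.28 to -0.32) in EnzR EVs + HDL NPs against EnzR EVs lie to the left of 0, and neither gene passed the adjusted threshold.

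Levels of different genes were compared per kilobase of exon. In the PBS group Cebpb averaged 281 ± 206 CPM per kilobase (SD, n = 3), Csf3r 182 ± 54.9, Spi1 133 ± 20.2 and Cebpe 125 ± 48.4 CPM per kilobase, and these neighbours in the order differed by less than their spread. Cebpd followed at 47.1 ± 8.83 and Cebpa at 31.8 ± 10.5 CPM per kilobase. Klf4 at 20.5 ± 6.07, Gfi1 at 14.4 ± 3.38 and Runx1 at 12.6 ± 2.38 CPM per kilobase made up the low end, where Gfi1 and Runx1 also differed by less than their spread. In the 6 libraries low in Rn45s the order began with Csf3r at 221 ± 32.8 CPM per kilobase (SD, n = 6), ahead of Cebpe at 147 ± 24.6, Cebpb at 145 ± 35.2 and Spi1 at 135 ± 18.1 CPM per kilobase, so the top place of Cebpb rested on the libraries high in Rn45s.

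Cebpa, Cebpb, Cebpd and Runx1 were higher in each of the 3 libraries high in Rn45s than in any of the other 6. These were 4 of the 9 members, beside 1941 of 12553 genes (15.5%) that were higher in this way and 2253 (17.9%) that were lower. Cebpb was at 542 to 1420 CPM in the 3 libraries and at 128 to 274 CPM in the 6. Cebpa was at 83.2 to 209 CPM against 47.4 to 70.6 CPM, Cebpd at 213 to 303 CPM against 97.4 to 177 CPM, and Runx1 at 109 to 139 CPM against 79.2 to 100 CPM. For the other 5 members these libraries overlapped. The log2 share of Rn45s and log2 CPM had a Pearson r of 0.96 for Cebpb (Spearman's rho 0.88) and of -0.88 for Cebpe (rho -0.87) over the 9 libraries, which share depth and group with each other, and of 0.64 and -0.63 over the 6 libraries low in Rn45s. For Runx1 r was 0.96 (rho 0.92) over the 9 and 0.86 over the 6. Over the 6 alone, Gfi1 had r of -0.82 and Klf4 of -0.69, against -0.54 (rho -0.72) and 0.14 (rho 0.02) over the 9. For Cebpa r was 0.85 over 9 libraries (rho 0.68) and -0.39 over the 6, so this relation rested on the libraries high in Rn45s.

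**Figure D3:**
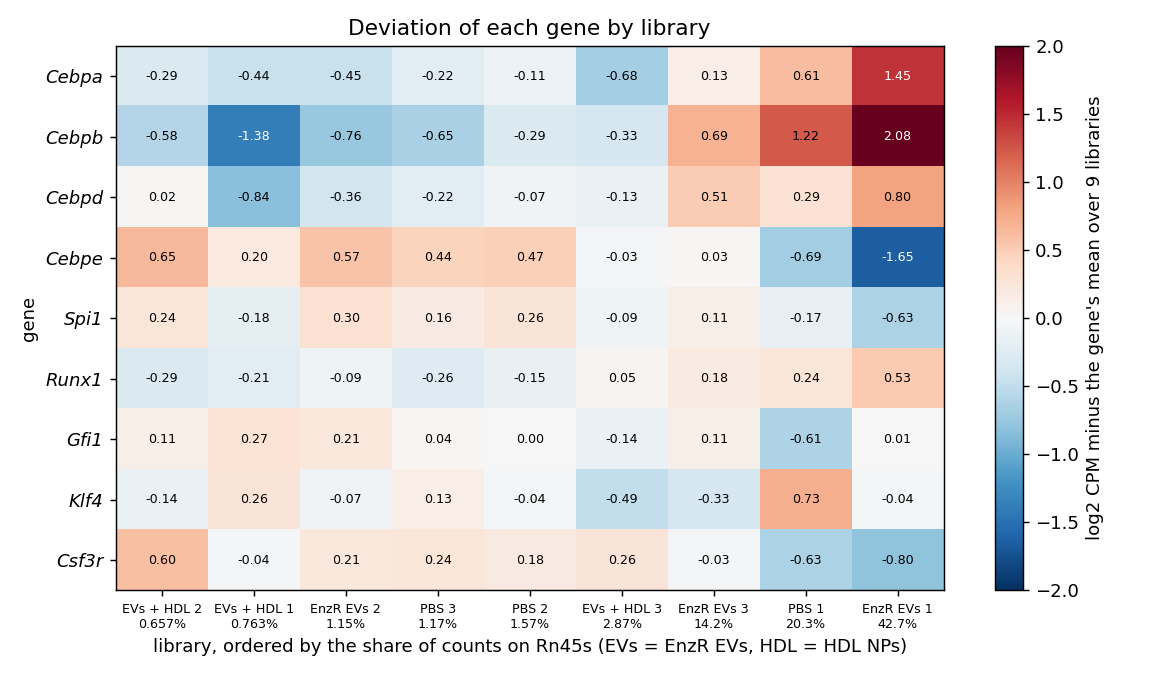
Log2 CPM of each gene minus its mean over the 9 libraries, with libraries ordered from left to right by the share of counts on Rn45s (0.657% to 42.7%, printed under each name). Cebpb goes from -0.58 in the leftmost library to 2.08 in the rightmost, and Cebpe from 0.65 to -1.65.

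The summed neutrophil markers moved with the same libraries. Over the 9 libraries the log2 of their summed level had an r of 0.97 with log2 CPM of Cebpe (rho 0.97) and of 0.92 over the 6 libraries low in Rn45s. For Csf3r the values were 0.89 (rho 0.68) and 0.37, for Runx1 -0.98 (rho -0.83) and -0.81, and for Cebpb -0.94 (rho -0.73) and -0.27. Cebpa had -0.88 (rho -0.63) over the 9 libraries and 0.63 over the 6. Cebpe thus followed the summed neutrophil markers with and without the 3 libraries, and Cebpb ran opposite to them over the 9 libraries and only weakly so within the 6. The part of cell composition and of RNA quality in these values was not tested.

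**Figure D4:**
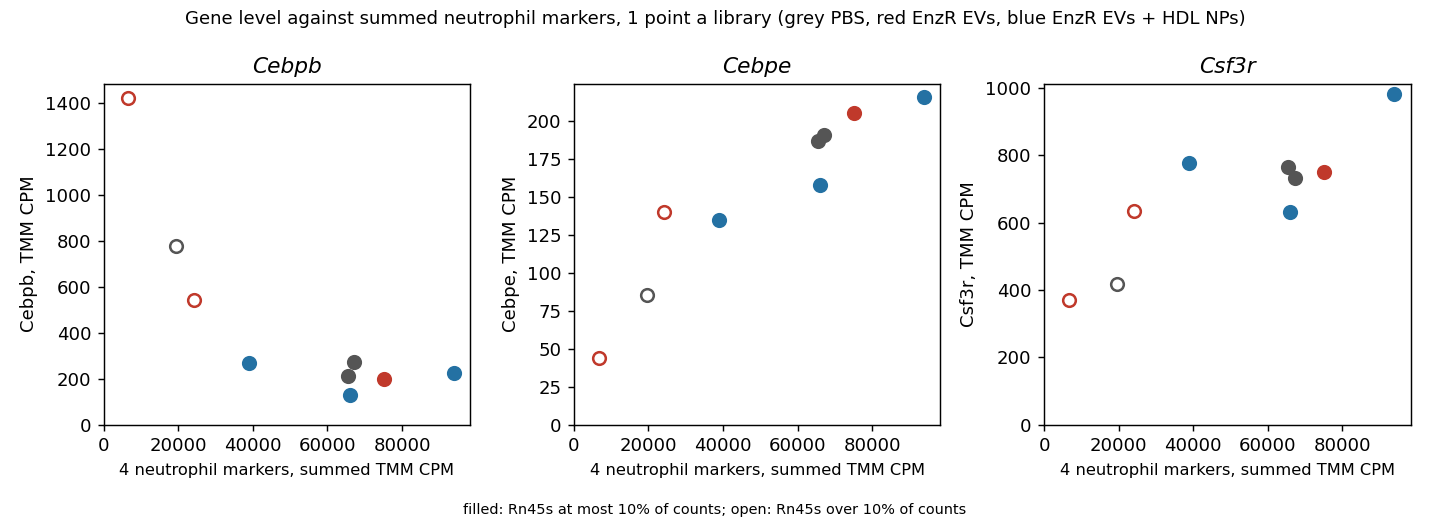
CPM of Cebpb, Cebpe and Csf3r against the summed CPM of 4 neutrophil markers, 1 point a library, with open points for the 3 libraries with over 10% of counts on Rn45s. The open points lie at 6610 to 24100 CPM on the horizontal axis, with the filled points at 38900 to 93900 CPM.

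Ratios of counts of 2 genes within a library are free of library scaling, and they were described without a test. Cebpe to Cebpa had a log2 ratio of -0.44, 1.44 and 1.53 in PBS 1 to 3, -2.25, 1.88 and 0.75 in EnzR EVs 1 to 3, and 1.50, 1.81 and 1.50 in EnzR EVs + HDL NPs 1 to 3. The 6 libraries low in Rn45s lay between 1.44 and 1.88 whatever their group, and the 3 high libraries lay under them. Spi1 to Cebpa followed the same pattern, at 2.00 to 2.48 in the 6 libraries and at -0.36 to 1.70 in the 3. Cebpb to Cebpa was at 2.70 to 2.77 in the 3 libraries and at 1.20 to 2.49 in the 6, with EnzR EVs + HDL NPs 3 the highest of the 6.

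Klf4 to Gfi1, a pair that favours monocytes and granulocytes respectively, stood at 1.34 in PBS 1 and at -0.45 to 0.08 in the other 8 libraries. Csf3r to Csf1r, the receptors for granulocyte and macrophage growth factors, averaged 0.82 ± 0.60 in PBS, 1.01 ± 0.27 in EnzR EVs and 1.38 ± 0.21 in EnzR EVs + HDL NPs (SD, n = 3 each, log2). The 3 libraries high in Rn45s held the 3 lowest ratios, 0.13, 0.80 and 0.91, against 1.11 to 1.62 in the other 6. The ratio was above 0 in all 9 libraries, and the 3 EnzR EVs + HDL NPs libraries, at 1.24 to 1.62, lay above all PBS libraries and on both sides of EnzR EVs 2 at 1.32.

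**Figure D5:**
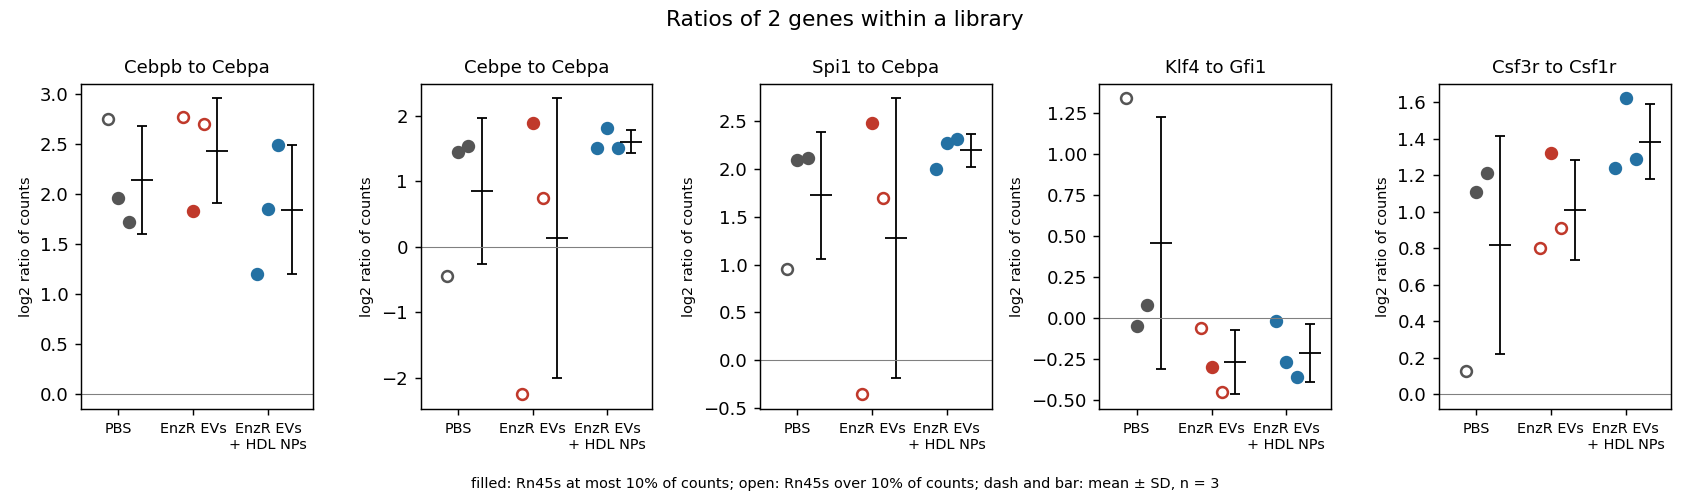
Log2 ratio of the counts of 2 genes within each library, 3 libraries a group, with mean and SD beside the points and open points for the 3 libraries with over 10% of counts on Rn45s. The ratio of Cebpe to Cebpa is at 1.44 to 1.88 for all filled points.

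Among the members, Cebpb and Cebpd ran most closely together once the high libraries were left out, with r of 0.93 over 9 libraries (rho 0.93) and 0.92 over 6. Cebpe and Spi1 had r of 0.93 (rho 0.85) and 0.87. Cebpa and Cebpb had r of 0.92 (rho 0.80) over 9 libraries and 0.16 over 6, and Cebpe and Csf3r 0.92 (rho 0.68) and 0.48. The pairs Cebpa with Cebpe and Cebpb with Cebpe, both at -0.88 over 9 libraries, came to 0.70 and 0.06 over 6, so these opposite courses rested on the 3 libraries.

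The genes most like each member over the 9 libraries were taken from 7779 genes with a mean of at least 10 CPM. Cebpa was most like Gltscr2 (r = 0.996, and 0.950 over the 6 libraries low in Rn45s). For Cebpb the nearest were 2310047M10Rik (r = 0.992) and Hexim1 (r = 0.992), and for Cebpd Zfyve27 (r = 0.987). Cebpe was followed by Ptcd1 (r = 0.995) and Ankrd13a (r = 0.995) and by the far more abundant Itm2b (r = 0.994, at 666 to 1580 CPM). Rac2, a GTPase of granulocyte movement and oxidant release, was nearest to Spi1 (r = 0.987). Csf3r was nearest to Ell (r = 0.995), and Alox5, the 5-lipoxygenase of leukotriene synthesis, was also among its nearest (r = 0.984). Runx1 had Hnrnpul2 as its nearest gene (r = 0.993), Gfi1 had Dhx29 (r = 0.958) and Klf4 had Tifa (r = 0.915).

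The remaining genes of the same pathways were read from lists. In edgeR's test 0 genes of any of them passed the adjusted threshold in any comparison, DESeq2 likewise called 0 of them, and counts at an unadjusted p under 0.05 follow, to be read beside the 3.47%, 2.13% and 10.6% of all genes that had one in the 3 comparisons. Of 6 relatives of the C/EBPs and Tribbles genes, 0 reached it in the 3 comparisons. Trib1, whose product directs C/EBP alpha protein to degradation, was the most abundant, at 240 to 404 CPM in PBS, 188 to 345 CPM in EnzR EVs and 139 to 258 CPM in EnzR EVs + HDL NPs, so the groups overlapped.

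Of 43 tested transcription factors of other blood lineages, 2 were lower in EnzR EVs than in PBS at an unadjusted p under 0.05, Egr1 (log2 fold change -0.80) and Zeb2 (-0.61). Egr1 was at 260 CPM in PBS 1, at 135 and 122 CPM in PBS 2 and 3 and at 89.4 to 107 CPM in EnzR EVs. Of the same list 5 reached it in EnzR EVs + HDL NPs against EnzR EVs, 4 lower and 1 higher, among them Id1 at -0.64 and Zeb2 at 0.55. The list's median log2 fold changes were -0.03, -0.08 and -0.05, beside -0.03, -0.01 and 0.03 over all genes.

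Of 12 other growth factor receptors, 1, 0 and 3 had an unadjusted p under 0.05 in the 3 comparisons. In the last, Csf2rb2 and Il3ra (-1.40) were lower and Kit (0.55) was higher in EnzR EVs + HDL NPs. Il3ra was at 53.2 CPM in EnzR EVs 1, at 10.7 and 17.1 CPM in the other 2 EnzR EVs libraries and at 8.80 to 10.0 CPM in EnzR EVs + HDL NPs. Csf2rb2, a beta chain of the interleukin-3 receptor, was at 35.6 to 56.7 CPM in PBS, 48.8 to 65.4 CPM in EnzR EVs and 36.4 to 37.6 CPM in EnzR EVs + HDL NPs. Its log2 fold changes were 0.47 against PBS and -0.68 for EnzR EVs + HDL NPs against EnzR EVs, with unadjusted p of 0.0466 and 0.00793 and adjusted p of 0.928 and 0.461 by edgeR. Csf1r, the receptor of macrophage colony-stimulating factor, was at 213 to 381 CPM over the 9 libraries.

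Among 21 genes of signalling downstream of the G-CSF receptor, 1 had an unadjusted p under 0.05 in EnzR EVs against PBS, and 0 had it in the other 2 comparisons. It was Socs3, the feedback inhibitor of this receptor, at 36.1, 30.8 and 37.0 CPM in PBS 1 to 3, 73.5, 50.6 and 45.4 CPM in EnzR EVs 1 to 3, and 29.5, 53.6 and 31.6 CPM in EnzR EVs + HDL NPs 1 to 3. All EnzR EVs libraries lay above all PBS libraries, and the log2 fold change was 0.69 (edgeR, unadjusted p = 0.0252, adjusted p = 0.928). Mcl1, a survival factor of granulocytes, was the most abundant of the list and reached 2250 CPM in EnzR EVs 1 against 834 to 1490 CPM in the other 8 libraries.

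Granule genes mark the stages at which these factors act. Of 7 primary granule genes, made in promyelocytes, all 7 had a log2 fold change under 0 in EnzR EVs + HDL NPs against EnzR EVs, with a median of -0.63 beside 0.03 over all genes, and Mpo (-0.96), Prtn3 (-0.98) and Prss57 (-1.20) had an unadjusted p under 0.05, as did 10.6% of all genes. Prtn3 was at 288, 191 and 210 CPM in PBS 1 to 3, 216, 319 and 335 CPM in EnzR EVs 1 to 3, and 196, 123 and 123 CPM in EnzR EVs + HDL NPs 1 to 3, so that the last 2 groups did not overlap. The summed level of the list was 2010 CPM in EnzR EVs + HDL NPs 1, within the 1680 to 2210 CPM of the PBS group, and 1040 and 1140 CPM in EnzR EVs + HDL NPs 2 and 3. Eosinophil markers were likewise at 3160 CPM in the first of these libraries and at 1300 and 1610 CPM in the other 2, and basophil and mast cell markers at 140 CPM against 28.0 and 26.3 CPM; their part in the result was not tested. In EnzR EVs + HDL NPs against PBS the median of this list was -0.54, with Prtn3 the 1 gene at an unadjusted p under 0.05, and in EnzR EVs against PBS it was 0.34, with Prss57 the 1 such gene. Of 10 secondary and tertiary granule genes 0 had an unadjusted p under 0.05 in the 3 comparisons. Their summed level, led by Ltf, was 29700 CPM in EnzR EVs 1, 43800 CPM in PBS 1 and 49200 to 68900 CPM in the other 7 libraries.

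Markers of other cells that a CD11b selection can hold were present. The 5 monocyte markers summed to 1340 to 2490 CPM with F13a1 the most abundant, the 7 macrophage markers to 492 to 1110 CPM with Vcam1, and the 3 eosinophil markers to 1300 to 3290 CPM with Prg2. In EnzR EVs against PBS, where 3.47% of all genes had an unadjusted p under 0.05, the macrophage markers Vcam1, Cd5l and Mrc1, the monocyte marker Cx3cr1, the erythroid markers Alas2 and Car2, the B lineage markers Cd79b and Pax5 and the dendritic cell marker Cd209a reached it with lower levels. The macrophage marker C1qb had a log2 fold change of 0.73 there, with 191 CPM in EnzR EVs 1. Cd5l, Pax5 and Cd209a were lower at an unadjusted p under 0.05 in EnzR EVs + HDL NPs against PBS (2.13% of all genes). Pax5 was near the floor, at 0.629 to 0.880 CPM in PBS. It reached at most 0.160 CPM in EnzR EVs and 0.225 CPM in EnzR EVs + HDL NPs. Pax5 may have passed the filter on low counts through the PBS group alone, so nothing is drawn from its lower level in either comparison. C1qb (-1.42) and the NK cell marker Nkg7 (-1.14) were lower at an unadjusted p under 0.05 in EnzR EVs + HDL NPs against EnzR EVs (10.6% of all genes). The progenitor marker Kit (0.55) was higher at that threshold. In this comparison 5 macrophage markers had a log2 fold change above 0 and 2 below, with a median of 0.25. Of the tested T and NK cell markers 4 were above 0 and 1, Nkg7, was below. Basophil and mast cell markers, led by Prss34, were at 209 CPM in PBS 1, 183 CPM in EnzR EVs 1 and 140 CPM in EnzR EVs + HDL NPs 1, and at 26.3 to 103 CPM in the other 6 libraries. In EnzR EVs 1 this sum was carried by Prss34 at 164 CPM, and the other markers of the list did not share its high level. Mcpt8 (15.9 CPM) and Cpa3 (3.29 CPM) lay there under all PBS libraries, and Fcer1a was at 0 CPM. Progenitor markers summed to 53.6 to 91.8 CPM, platelet markers to 24.8 to 99.9 CPM, T and NK cell markers to 31.3 to 80.1 CPM, erythroid markers to 23.8 to 78.1 CPM, stromal markers to 12.1 to 70.4 CPM, B lineage markers to 7.61 to 22.4 CPM and dendritic cell markers to 5.69 to 19.1 CPM. The globin genes Hba-a1 and Hbb-bs, the latter under an older symbol, were listed at 0 in all 9 libraries. Their part in the members' values was not tested.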

How the data were processed

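Gene counts were deposited by the authors for each library: stranded total RNA with ribosomal RNA depletion, adapters trimmed with cutadapt 1.13, reads of poor quality or of ribosomal RNA filtered out, STAR alignment to mm10, and counting with htseq-count (HTSeq 0.6.1p1) on a UCSC annotation. The strand setting of the counting is not given in the sources used here. Annotated exons of Cebpa, Cebpb, Cebpd, Runx1 and Gfi1 overlap genes of the opposite strand, so their counts could hold reads of those genes.

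The analysis used edgeR 4.0.16 under R 4.3.3, with scaling by TMM, the default low-count filter, a robust quasi-likelihood fit to all 9 libraries with 1 coefficient per group, and Benjamini-Hochberg adjustment at 0.05. Log2 CPM used a prior count of 2. DESeq2 1.42.0 and limma 3.58.1 were alternatives, as were other scalings, no filter, the 6 libraries of a comparison, a replicate block, and leaving out Rn45s, the libraries high in it or each library in turn, and single genes also had two-sided exact permutation tests. Exon lengths and coordinates came from GENCODE M21 (GRCm38). The fits were tested on simulated data, where fitted fold changes followed the true ones but every tool missed most of the smaller changes and DESeq2 made more false calls than its threshold allows; a required number of recovered genes was not met and was dropped after that was seen. Counting error is the only error that the count floors cover. Genes named were taken from the members, the genes past the threshold, the 3 most abundant and the 2 with the smallest unadjusted p in each comparison of each list, the markers, Rn45s, and the 3 genes most like each member. Genes named with a count of 5 or fewer outside this rule were chosen after their values were seen. Values of 1 gene of the lists are not reported here. The members and lists were chosen with earlier results of these data known.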

Additional observations from a re-analysis of the deposited data

How the results depend on the processing

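No alternative called a member: the number called was 0 of 9 in each comparison under each one run, and the smallest adjusted p of a member was 0.0515. The number of genes called moved from 0 in EnzR EVs against PBS to 14 by DESeq2, 1972 by voom with sample quality weights, 1 without a filter on low counts, 10 without the 3 libraries high in Rn45s, and 1 with the log2 share of Rn45s as a covariate, which was chosen after seeing the data. In EnzR EVs + HDL NPs against PBS it moved from 0 to 2 by DESeq2 and 8 by voom with weights. In EnzR EVs + HDL NPs against EnzR EVs it moved from 0 to 1 by DESeq2, 639 by voom with weights, 1 with the 6 libraries of the comparison only and 1 without the 3 libraries. Leaving out each library in turn gave 0 to 2 genes, 0 to 0 and 0 to 1 in the 3 comparisons, the upper values without PBS 1. The causes were not tested. With the replicate number as a block, edgeR called 1, 0 and 0 genes and 0 members, and changed no sign of a member. The block moved the genes with an unadjusted p under 0.05 from 436 to 747, 268 to 476 and 1325 to 2286. Deviations of libraries of the same number correlated at 0.473, 0.492 and 0.131 between PBS and EnzR EVs, at 0.0609, 0.293 and -0.175 between PBS and EnzR EVs + HDL NPs, and at -0.0363, 0.209 and 0.121 between the last 2 groups. PBS 3 was closer to EnzR EVs 2 (0.429) than to EnzR EVs 3. The labels give no shared litter, batch or day, and whether the numbers pair the mice cannot be told from these values. Without the 3 libraries high in Rn45s, which left 1 EnzR EVs library taken to vary like the other groups, 13 of 27 log2 fold changes of members changed sign. In EnzR EVs against PBS these were Cebpa (-0.28), Cebpb (-0.30), Cebpd (-0.21), Cebpe (0.12), Spi1 (0.09) and Csf3r (0.0045). In EnzR EVs + HDL NPs against PBS they were Cebpe (-0.16) and Runx1 (0.06), and in EnzR EVs + HDL NPs against EnzR EVs Cebpb (0.05), Cebpd (0.09), Cebpe (-0.28), Spi1 (-0.30) and Klf4 (-0.02). With the covariate 10 changed sign: Cebpa (-0.02), Cebpb (-0.06), Cebpe (0.13), Spi1 (0.04) and Csf3r (0.12) in EnzR EVs against PBS, Cebpe (-0.27) and Runx1 (0.09) in EnzR EVs + HDL NPs against PBS, and Cebpe (-0.40), Spi1 (-0.31) and Csf3r (-0.02) in EnzR EVs + HDL NPs against EnzR EVs. Voom with weights turned Cebpe (-0.07) and Runx1 (0.02) against PBS and Spi1 (-0.03) against EnzR EVs, all in EnzR EVs + HDL NPs. In that last comparison Gfi1 came to 0.19 with library size only, which moved the median of all genes from 0.03 to 0.24, and to 0.01 without a filter. DESeq2, voom without weights, DESeq2 size factors, the 6 libraries only and leaving out Rn45s turned 0 of 27. Leaving out each library in turn gave, in EnzR EVs against PBS, -0.26 to 0.81 for Cebpa, -0.18 to 1.54 for Cebpb, -0.69 to 0.16 for Cebpe, -0.28 to 0.11 for Spi1 and -0.36 to 0.12 for Csf3r. In EnzR EVs + HDL NPs against PBS it gave -0.16 to 0.32 for Cebpe, -0.24 to 7.4e-04 for Spi1 and -0.21 to 0.06 for Runx1. In EnzR EVs + HDL NPs against EnzR EVs it gave -0.03 to 0.83 for Cebpe, -0.21 to 0.19 for Spi1, -0.14 to 0.06 for Gfi1 and -0.17 to 0.20 for Klf4. In EnzR EVs against PBS the signs turned without EnzR EVs 1, and for Csf3r also without PBS 2 or PBS 3. Against PBS in EnzR EVs + HDL NPs, Cebpe turned without PBS 1 or EnzR EVs + HDL NPs 2, Spi1 without PBS 2 and Runx1 without PBS 1. In the last comparison Cebpe and Spi1 turned without EnzR EVs 1, Spi1 also without EnzR EVs + HDL NPs 2, Gfi1 without EnzR EVs + HDL NPs 3, and Klf4 without EnzR EVs 3 or EnzR EVs + HDL NPs 1. EnzR EVs 1 had the fewest counts, 2575776, which limits the precision of its values.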
